A study of Mus musculus with 16 samples.

Results

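The genes described here are 10 markers of p53 activity and cell senescence: Trp53, which encodes p53, its targets Cdkn1a, Mdm2, Ccng1, Bax and Gdf15, the CDK inhibitors Cdkn2a and Cdkn2b, the lamin gene Lmnb1 and the lysosomal enzyme gene Glb1. They were taken by symbol from a table of 55536 mouse genes, and all 10 were found. Expression was measured by RNA-seq in 16 libraries of bone marrow, samples labelled MSC, and tumors. They came from wild-type (WT) mice and from mice carrying K74R, a lysine-to-arginine change. The letters KLF stand in the column names of the K74R MSC libraries and are not taken here as the name of the changed gene. The comparison stated for the series is between these genotypes within each tissue.

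p53 is a transcription factor that is kept at a low level mainly by degradation and is stabilised by DNA damage and other stress, so that its own mRNA is a poor guide to its activity and its targets are read instead. Cdkn1a (p21) stops the cell cycle, Mdm2 is the ubiquitin ligase that returns p53 to a low level, Ccng1 encodes cyclin G1, Bax promotes apoptosis, and Gdf15 encodes a secreted stress factor that is also induced by ATF4 in the integrated stress response. Senescence is a lasting arrest of the cell cycle, held by p21 and by the inhibitors p16Ink4a (Cdkn2a) and p15Ink4b (Cdkn2b), with loss of lamin B1 (Lmnb1) and rising activity of the lysosomal beta-galactosidase encoded by Glb1. Cultured stromal cells are known to build up Cdkn2a and Cdkn2b, while in the mouse blood-forming marrow these loci are kept silent by Polycomb proteins.

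There were 3 WT and 3 K74R libraries of bone marrow, 2 WT and 2 K74R libraries of MSC, and 3 and 3 of tumor. Tumors were made with MC38, a line from a mouse colon adenocarcinoma, and were taken at up to 1000 mm3. Their genotype label is that of the host mouse, so that tumor counts hold RNA of the implanted line and of host cells together. The titles call the mutants KO, and the genotype field calls them K74R. No treatment, strain, sex or age is given for any group, and the abbreviation MSC is not expanded. Whether replicates are separate animals or cultures is not stated, and p-values therefore describe the spread among these libraries, which may be technical.

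Library totals ran from 14067259 to 18923751 counts, and 3 counts in 1 library were worth 0.148 to 0.23 CPM. This unit, counts scaled to a common library total, is used for all levels below. Bone marrow libraries held erythroid markers at a sum of 26459.7 to 34265 CPM and neutrophil markers at 22763.5 to 30603. MSC libraries held 8 stromal markers at 11245 to 15557 CPM, and also 5 macrophage markers at 1753 to 6892, so that the MSC samples were not free of macrophage RNA. In the tumors the epithelial markers Krt8, Krt18, Krt19 and Epcam were all under 0.6 CPM, and Cdh1 stood at 3.66 to 7.51. In these bulk samples, fewer cells of a type and less RNA per cell cannot be told apart.

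The p53 protein binds a response element made of a pair of decamers. The promoter windows of RefSeq (GRCm38.p6), from 250 bases before to 50 after a start site, were searched on both strands for an exact match of the p53 decamer, which reads the same on either strand. Windows were found for 9 of the 10 genes. The windows of Trp53, Mdm2, Ccng1 and Bax held 1 decamer each and the first of the 2 Cdkn1a windows held 2, separated by 12 bases. A decamer was present in 8.36% of all 32851 windows, and a pair within 13 bases of each other in 0.0731% of them. No match was found in the windows of Cdkn2a, Cdkn2b, Gdf15 and Glb1 or in the second Cdkn1a window. Of the 31 genes with a window among 40 other known p53 targets, 9 held a match, against 9.55% of all 27025 genes. The 250 bases upstream of the start are printed for the 5 genes with a match, 5′ to 3′ on the strand of the gene, with the decamer in capitals, since 4 of them are the classical p53 targets whose levels are followed below.
Cdkn1a, chr17:29090729-29090978, plus strand: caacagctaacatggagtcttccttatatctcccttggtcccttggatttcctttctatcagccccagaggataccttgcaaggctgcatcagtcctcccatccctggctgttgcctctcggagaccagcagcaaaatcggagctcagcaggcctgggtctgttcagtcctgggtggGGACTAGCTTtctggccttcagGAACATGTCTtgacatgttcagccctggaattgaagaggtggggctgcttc
Mdm2, chr10:117710759-117711008, minus strand: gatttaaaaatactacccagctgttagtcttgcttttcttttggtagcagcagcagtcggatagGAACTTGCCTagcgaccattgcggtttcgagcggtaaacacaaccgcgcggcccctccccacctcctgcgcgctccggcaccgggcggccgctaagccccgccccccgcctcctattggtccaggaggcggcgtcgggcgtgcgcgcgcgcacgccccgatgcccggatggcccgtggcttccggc
Ccng1, chr11:40755287-40755536, minus strand: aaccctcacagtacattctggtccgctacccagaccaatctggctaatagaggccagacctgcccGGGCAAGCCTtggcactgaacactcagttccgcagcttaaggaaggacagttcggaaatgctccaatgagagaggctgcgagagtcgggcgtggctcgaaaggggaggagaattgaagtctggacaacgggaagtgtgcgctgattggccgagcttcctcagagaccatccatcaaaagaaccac
Bax, chr7:45466899-45467148, minus strand: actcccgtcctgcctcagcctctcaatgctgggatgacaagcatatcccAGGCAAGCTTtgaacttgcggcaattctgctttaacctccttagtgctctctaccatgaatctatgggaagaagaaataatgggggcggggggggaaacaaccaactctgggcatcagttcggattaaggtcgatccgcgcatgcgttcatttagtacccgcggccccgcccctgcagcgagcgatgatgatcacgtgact
Trp53, chr11:69580109-69580358, plus strand: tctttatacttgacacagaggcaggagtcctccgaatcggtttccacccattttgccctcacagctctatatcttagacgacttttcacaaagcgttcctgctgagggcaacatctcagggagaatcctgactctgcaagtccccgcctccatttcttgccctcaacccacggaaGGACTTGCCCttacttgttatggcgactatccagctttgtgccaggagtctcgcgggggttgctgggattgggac
In Cdkn1a the decamers began 73 and 51 bases before the start of its first window, in Trp53 75, in Ccng1 185, in Mdm2 186 and in Bax 201. The second Cdkn1a window, without a match, lies downstream at 29093519 to 29093818. The 10 bases right after the second Cdkn1a decamer miss an exact match by their first letter and were not counted. A match describes the letters only. No binding was measured, and p53 also binds distal and intronic sites that these windows leave out.

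Trp53 mRNA hardly differed between tissues, while the genes downstream of it did. Trp53 (ENSMUSG00000059552, chromosome 11, 69580359 to 69591873 on GRCm38) stood at 96.4, 98.3 and 90.6 CPM in the WT marrow libraries, 78.6 and 99.1 in WT MSC and 96.1, 86.9 and 97.9 in WT tumors. The 3 tissues overlapped. Adjusted p-values come from the quasi-likelihood test of edgeR, with Benjamini-Hochberg adjustment over all genes, unless another tool is named. The log2 difference of WT marrow over WT MSC was 0.10 (SE 0.14, adjusted p = 0.55) and was not called, and its sign changed with the genotype used. Over all 16 libraries Trp53 ran from 78.6 to 124 CPM, with the highest value in K74R MSC library 1.

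Cdkn1a showed a steep order, with MSC above tumor and tumor above marrow. Cdkn1a (ENSMUSG00000023067, chromosome 17, 29090976 to 29100727) was at 313 and 360 CPM in WT MSC, at 50.9, 47.2 and 48.0 in WT tumors and at 8.20, 7.58 and 6.43 in WT marrow. No tissue overlapped another in either genotype. WT marrow was 45.3-fold below WT MSC (log2 -5.50, SE 0.14, adjusted p = 1.3e-12) and 6.56-fold below WT tumor (log2 -2.71, SE 0.13, adjusted p = 6.8e-11). An antisense gene model, AC167363.2, covers 7.68% of the Cdkn1a exon length, and without a stated strand setting its reads cannot be told apart.

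Ccng1 and Bax had the same top tissue with smaller steps. Ccng1 (ENSMUSG00000020326, chromosome 11, 40748552 to 40755311) was at 687 and 716 CPM in WT MSC, against 132 to 144 in WT tumors and 103 to 123 in WT marrow. The MSC level was 5.06-fold that of tumor (log2 2.34, SE 0.14, adjusted p = 1.8e-09). Marrow and tumor differed by little, and that call (log2 -0.31, SE 0.13, adjusted p = 0.0395) was lost with relative log expression factors (-0.24, adjusted p = 0.0883), with DESeq2 (-0.24, 0.0891) and with the replicate block (-0.30, 0.0561). It was also lost without WT marrow replicate 1 (-0.25, adjusted p = 0.137) or 2 (-0.29, 0.0946), without K74R marrow replicate 3 (-0.30, 0.0503), and without WT tumor replicate 1 (-0.30, 0.0817) or 2 (-0.28, 0.101). Bax (ENSMUSG00000003873, chromosome 7, 45461697 to 45466898) was at 50.2 and 56.4 CPM in WT MSC, 23.5, 23.9 and 25.5 in WT tumors and 14.9, 15.5 and 16.3 in WT marrow, with no overlap between these groups. A gene model on the same strand, Gm45808, covers 12.2% of the Bax exon length, so its share of those reads is uncertain.

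Mdm2 did not follow this order, since its lowest tissue was the tumor. Mdm2 (ENSMUSG00000020184, chromosome 10, 117688875 to 117710758) was at 156 and 116 CPM in WT MSC, at 96.0, 86.6 and 80.2 in WT marrow and at 35.5, 30.7 and 36.0 in WT tumors. WT marrow was 2.57-fold above WT tumor (log2 1.36, SE 0.11, adjusted p = 3.6e-08), opposite in direction to Cdkn1a, Ccng1 and Bax. Gdf15 (ENSMUSG00000038508, chromosome 8, 70629393 to 70632456) was low in all tissues, at 6.39 and 4.67 CPM in WT MSC, 1.92, 0.838 and 1.00 in WT tumors, and 0, 0.257 and 0.306 in WT marrow, where the 3 libraries held 8 counts together.

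The Cdkn2a and Cdkn2b mRNAs were the sharpest divide between the tissues. They lie side by side on chromosome 4, Cdkn2a (ENSMUSG00000044303) at 89274471 to 89294653 and Cdkn2b (ENSMUSG00000073802) at 89306299 to 89311039, both on the minus strand. Cdkn2a was at 41.6 and 59.3 CPM in WT MSC and at 2.98, 3.80 and 3.28 in WT tumors. Cdkn2b was at 76.9 and 83.0 CPM in WT MSC and at 10.8, 10.7 and 7.07 in WT tumors. In WT marrow neither gene had a count in any of the 3 libraries, so a level of up to 0.0688 CPM remains possible for each. Against that floor of 3 counts over the group, WT MSC was at least 734-fold higher for Cdkn2a and at least 1163-fold higher for Cdkn2b, and WT tumors were at least 48.8-fold and 138-fold higher. K74R marrow held 3 counts of Cdkn2a and 6 of Cdkn2b in 3 libraries. The Cdkn2a count sums its p16Ink4a and p19Arf transcripts, which share exons and start from separate promoters, so it cannot say which of the 2 was present.

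Lmnb1 ran against the CDK inhibitors, and Glb1 set marrow apart from both other tissues. Lmnb1 (ENSMUSG00000024590, chromosome 18, 56707813 to 56753424) was at 407, 313 and 353 CPM in WT marrow, 181, 170 and 195 in WT tumors and only 14.1 and 12.2 in WT MSC. Marrow was 27.1-fold above MSC (log2 4.76, SE 0.15, adjusted p = 2.7e-12) and 1.96-fold above tumor (log2 0.97, SE 0.10, adjusted p = 6.2e-07). Glb1 (ENSMUSG00000045594, chromosome 9, 114401076 to 114474898) was at 96.0 and 98.7 CPM in WT MSC, 100.1, 95.1 and 90.4 in WT tumors and 31.3, 34.0 and 31.4 in WT marrow. MSC and tumor overlapped (log2 0.03, 95% interval -0.16 to 0.23, adjusted p = 0.78), while marrow was 3.02-fold below MSC (adjusted p = 6.7e-10). Part of Glb1, 5.49% of its exon length, is shared with Tmppe on the same strand.

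**Figure D1:**
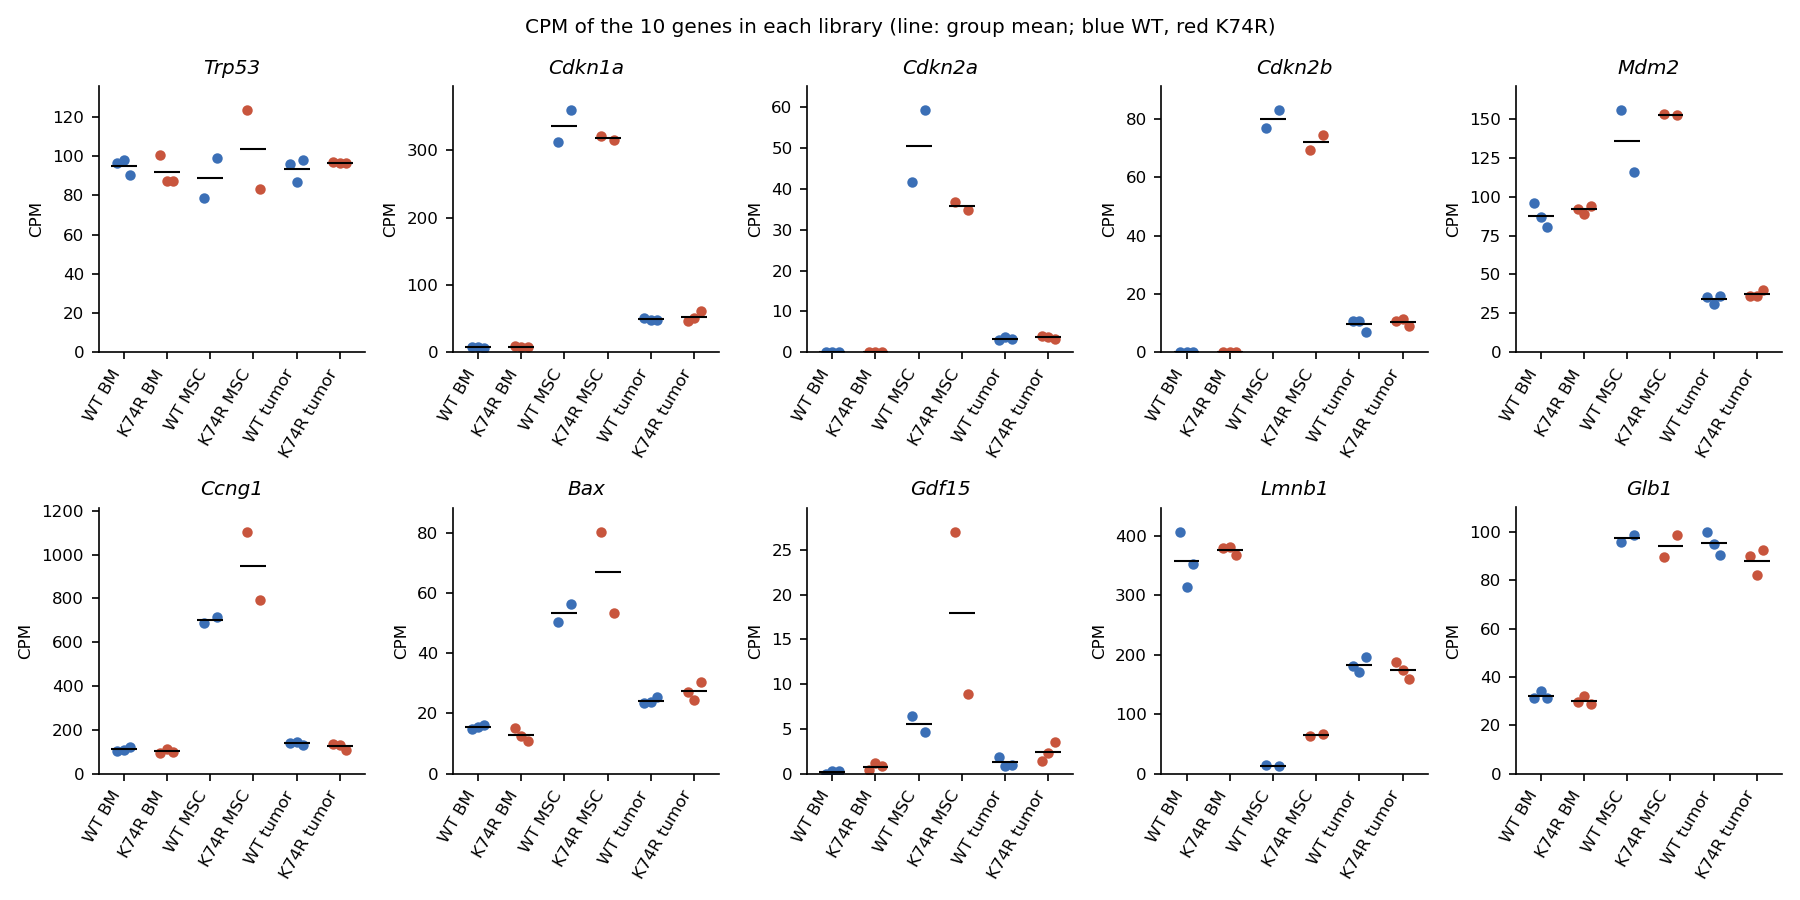
CPM of each of the 10 genes in every library, with 1 panel per gene, a linear axis from 0, points for libraries, lines for group means, blue for WT and red for K74R. Cdkn1a, Cdkn2a, Cdkn2b, Ccng1 and Bax are highest in MSC, Lmnb1 is lowest there (12.2 to 66.8 CPM), Mdm2 is lowest in tumors (30.7 to 40.2 CPM), and Trp53 stays between 78.6 and 124 CPM.

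In all, 9 of the 10 genes differed between WT marrow and WT MSC, where 69.5% of all genes tested did: 8 were lower in marrow (33.5% of all genes) and Lmnb1 was higher (36%). Between WT marrow and WT tumor 9 of 10 differed, against 72.7% of genes, with Mdm2 and Lmnb1 higher (36.2% of all genes) and 7 lower (36.5%) in marrow. The 8 and the 7 lower genes include Cdkn2a, Cdkn2b and Gdf15, which were too low to test for genotype within marrow. The Cdkn2 genes, at 0 counts in WT marrow, entered this model through their MSC and tumor counts. Lower in marrow was the only direction open to them. Between WT MSC and WT tumor 8 of 10 differed, against 66% of genes, with 7 higher (31.9% of all genes) and Lmnb1 lower (34.1%) in MSC. Most of the 18191 genes tested differed between these tissues, so these counts are not particular to the 10. Their median log2 difference was -2.21 for marrow over MSC, against 0.08 over all genes tested, -1.10 for marrow over tumor, against 0.00, and 2.06 for MSC over tumor, against -0.06. The marrow medians include the Cdkn2 genes, which could only be lower there, so they are given as a description and not as a result. Scaling by library size alone shifted the median of all genes by -0.16 for marrow over tumor and by -0.19 for MSC over tumor, and every difference called here is larger than this shift.

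Compared per kilobase of exon, the order of the genes themselves also differed between tissues. In WT marrow Lmnb1 led at 121 ± 15.8 CPM per kb (SD, n = 3), followed by Ccng1 at 31.9 ± 2.96, Trp53 at 23.5 ± 0.99 and Mdm2 at 17.2 ± 1.56. In WT MSC Ccng1 led at 200 ± 5.82 CPM per kb (SD, n = 2), then Cdkn1a at 94.6 ± 9.27, Cdkn2b at 57.5 ± 3.15 and Cdkn2a at 43.0 ± 10.6, with Lmnb1 at rank 9 at 4.45 ± 0.47. Bax, Glb1 and Mdm2, at 33.8 ± 2.78, 32.4 ± 0.64 and 26.7 ± 5.54 CPM per kb in WT MSC, did not differ beyond their spread. In WT tumors Lmnb1 led again at 61.5 ± 4.25 CPM per kb (SD, n = 3), with Cdkn1a at rank 6 at 13.7 ± 0.54 and Cdkn2b and Mdm2 within their spread at 6.85 ± 1.53 and 6.70 ± 0.58.

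Wider lists placed the genes among their pathways. Of 40 other p53 targets, 25 were lower and 9 higher in WT marrow than in WT MSC (median log2 difference -1.03), where 33.5% of all genes were lower and 36% higher. In MSC 24 were higher and 8 lower than in tumor (median 0.79), against 31.9% and 34.1% of all genes. Between marrow and tumor 16 were higher and 16 lower (median 0.03), near the 36.2% and 36.5% of all genes. The 25 proliferation genes, S-phase and mitosis genes such as Mki67 and Pcna, were all higher in marrow than in MSC (median 4.23) and all lower in MSC than in tumor (median -3.46). Their summed level was 660 to 820 CPM in WT MSC, 5845 to 6373 in WT tumors and 13346.5 to 15720.2 in WT marrow, the same order as Lmnb1. Of 22 other lysosomal genes, 20 were lower in marrow than in MSC, as Glb1 was and 33.5% of all genes were. In the same list 18 were higher in MSC than in tumor, against 31.9% of all genes, where Glb1 was not called.

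**Figure D2:**
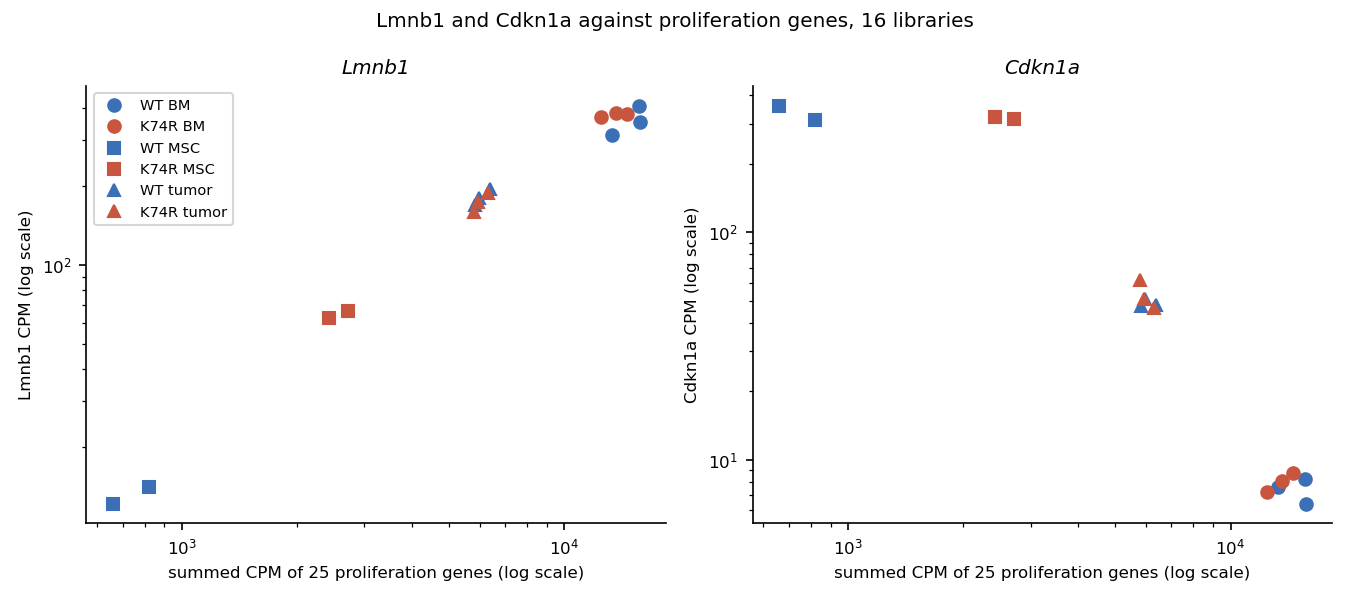
Lmnb1 (left) and Cdkn1a (right) in CPM against the summed CPM of 25 proliferation genes in the 16 libraries, on log axes, with circles for marrow, squares for MSC, triangles for tumors, blue for WT and red for K74R. Lmnb1 rises with the sum from WT MSC (12.2 and 14.1 CPM) through K74R MSC (62.9 and 66.8) to marrow, while Cdkn1a lies at 313 to 360 CPM in MSC at both levels of the sum.

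In MSC, Lmnb1 was the single gene of the 10 that passed the genotype test with edgeR, and it rose with a broad set of proliferation genes. No CDK inhibitor among the 10 passed that test. Lmnb1 stood at 14.1 and 12.2 CPM in WT MSC and reached 62.9 and 66.8 in K74R MSC, means of 13.2 ± 1.38 and 64.8 ± 2.80 (SD, n = 2). Both K74R libraries lay above both WT libraries, as did those of 30.4% of all genes. The gap was many times the spread within each genotype. The rise was 4.89-fold (log2 2.29, SE 0.20, 95% interval 1.81 to 2.78, adjusted p = 0.0196). So 1 of 10 genes passed, against 3.34% of the 14475 genes tested, and 2 had an unadjusted p under 0.05 (Lmnb1 and Gdf15), against 26% of them. The call was lost without K74R MSC replicate 1, although the value was not smaller (log2 2.34, adjusted p = 0.0933). In that fit edgeR called no gene in MSC at all, so the MSC calls named below were lost there too. Even in K74R MSC, Lmnb1 remained below its level in every tumor and marrow library (160 CPM or more).

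The inhibitors that accompany senescence did not pass the test in MSC. Cdkn1a was at 321 and 315 CPM in K74R MSC, within the WT values of 313 and 360 (log2 -0.08, 95% interval -0.55 to 0.38, adjusted p = 0.81). Cdkn2b was at 69.4 and 74.5 CPM in K74R against 76.9 and 83.0 in WT (log2 -0.16, 95% interval -0.57 to 0.25, adjusted p = 0.59). Cdkn2a was at 36.7 and 34.7 CPM in K74R against 41.6 and 59.3 in WT (log2 -0.50, 95% interval -1.06 to 0.05, adjusted p = 0.23). For both Cdkn2 genes the K74R libraries lay below the WT libraries without overlap, as did those of 29% of all genes in this 2-against-2 comparison. Glb1 was at 89.5 and 98.6 CPM in K74R and 96.0 and 98.7 in WT (log2 -0.06, 95% interval -0.47 to 0.36, adjusted p = 0.86).

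Trp53 and 3 of its targets had their highest MSC value in K74R library 1, while Cdkn1a had it in WT library 2 and Mdm2 in WT library 1. The share of all genes that were highest in K74R library 1 was not computed. Ccng1 was at 1105 and 791 CPM in K74R against 687 and 716 in WT (log2 0.43, SE 0.25, adjusted p = 0.34; 0.0495 in the model of all 16 libraries). Bax was at 80.4 and 53.5 CPM against 50.2 and 56.4 (log2 0.32, SE 0.24, adjusted p = 0.45), and Trp53 at 124 and 83.6 against 78.6 and 99.1 (log2 0.22, SE 0.25, adjusted p = 0.63). Gdf15 was at 27.0 and 8.89 CPM in K74R against 6.39 and 4.67 in WT. Its difference (log2 1.69, SE 0.55, adjusted p = 0.13) was not called. It was called with DESeq2 (adjusted p = 0.0237), with no filter on low counts (3.1e-06), with the replicate block (0.0437), in the model of all 16 libraries (0.0424) and without K74R MSC replicate 2 (0.0418). Without K74R MSC replicate 1 it fell to a log2 value of 0.68. For Ccng1 and Gdf15 both K74R libraries lay above both WT libraries, as did those of 30.4% of all genes, while for Bax and Trp53 the genotypes overlapped. Mdm2, at 153 CPM in both K74R libraries against 156 and 116 in WT, did not stand out there (log2 0.16, SE 0.21, adjusted p = 0.68).

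**Figure D3:**
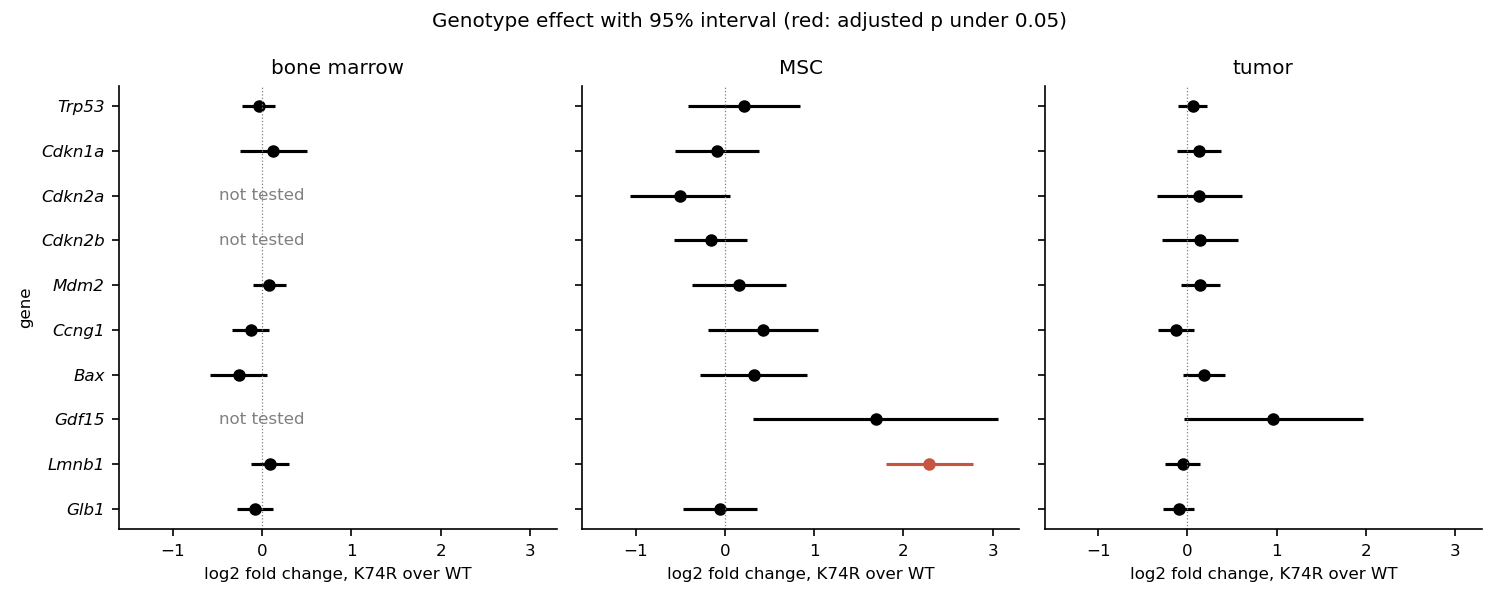
Log2 fold change of K74R over WT for the 10 genes in bone marrow, MSC and tumor, with 95% intervals from edgeR. The single red point is Lmnb1 in MSC (2.29, interval 1.81 to 2.78). Gdf15 in MSC (0.32 to 3.06) has an interval above 0 but an adjusted p of 0.13, and 3 genes were too low to test in marrow.

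The proliferation genes rose in K74R MSC beside Lmnb1. Of 25 tested, 20 rose and none fell, against 2.05% of all genes that rose, and all 25 had a positive log2 difference, with a median of 2.26 against 0.00 over all genes. Mcm6, a subunit of the replicative helicase, went from 32.7 ± 1.55 to 158 ± 3.00 CPM (SD, n = 2) (log2 2.26, adjusted p = 0.0196). Birc5 (survivin, a subunit of the chromosomal passenger complex) went from 4.64 ± 0.91 to 39.7 ± 2.92 CPM (log2 3.08, adjusted p = 0.0196). Summed over the list, WT MSC held 660 and 820 CPM and K74R MSC 2419 and 2713. Without K74R MSC replicate 1 none of the 25 passed, as for Lmnb1, and the 25 differences were still all positive (median 2.16).

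A minority of other cell cycle and chromatin genes passed, where 3.34% of all genes did. Among 20 other CDK inhibitors, cyclins and RB genes, 3 rose and 1 fell (median log2 0.53). The G1/S cyclins Ccne1 (7.07 ± 0.52 to 21.1 ± 3.995 CPM, log2 1.57, adjusted p = 0.0393) and Ccne2 (6.16 ± 0.10 to 34.4 ± 8.24 CPM, log2 2.47, adjusted p = 0.0196) rose, as did the Polycomb methyltransferase Ezh2 (15.5 ± 1.95 to 43.9 ± 3.97 CPM, log2 1.49, adjusted p = 0.0319). Cbx7, a Polycomb protein that represses the Cdkn2a locus, fell from 18.9 ± 0.17 to 5.78 ± 1.84 CPM (log2 -1.72, adjusted p = 0.0462). Of 14 lamin, nuclear envelope and chromatin genes, a list in which some but not all are known to be lost in senescence, 2 rose. These were Uhrf1 (15.3 ± 1.87 to 83.7 ± 0.70 CPM, log2 2.44, adjusted p = 0.0196) and Hells (9.42 ± 1.54 to 33.3 ± 11.0 CPM, log2 1.81, adjusted p = 0.0441), both needed to maintain DNA methylation. Of those 14, 13 had a positive value (median log2 0.78). DESeq2, which called 1909 of the 14475 genes in MSC, called 7 higher and 2 lower of the 20 and 8 higher of the 14. With limma-voom 3 were called higher and 1 lower of the 20, and 1 higher of the 14. Besides the loss without K74R MSC replicate 1, the Ezh2 call was lost without WT MSC replicate 2 (adjusted p = 0.0858) or K74R MSC replicate 2 (0.0585). That of Cbx7 was lost with library size alone (0.0589) and without WT MSC replicate 1 (0.071) or 2 (0.0888). That of Hells was lost with library size alone (0.06), with limma-voom (0.0553) and without WT MSC replicate 2 (0.0995) or K74R MSC replicate 2 (0.0677).

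The rest of the p53 pathway showed no called gene in MSC by edgeR. Of 40 other p53 targets 0 passed and 8 had an unadjusted p under 0.05, against 26% of all genes. Of the 40, 27 had a negative log2 difference (median -0.14). Beside 1909 of all 14475 genes, DESeq2 called 2 of the 40 higher and 3 lower, and limma-voom called 0. The one with the smallest p was Ckap2, a spindle protein gene, at 11.0 ± 4.40 CPM in WT and 31.6 ± 7.28 in K74R (log2 1.51, adjusted p = 0.0724). Of 19 p53 regulators 0 passed and 4 had an unadjusted p under 0.05, against the same 26% (median -0.02). DESeq2 called 4 of the 19 higher and limma-voom 1. Npm1, the nucleolar protein nucleophosmin, had the smallest p, at 280 ± 53.9 and 680 ± 4.45 CPM (log2 1.27, adjusted p = 0.0505), and near-identical copies of Npm1 in the genome make its count uncertain.

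In 4 further lists 1 gene each passed in MSC, where 3.34% of all genes did. In the BCL2 family, 1 of 13 fell, the proapoptotic Bmf, from 11.7 ± 1.07 to 2.44 ± 0.04 CPM (log2 -2.26, adjusted p = 0.0278). Among 28 senescence-associated secreted factors 1 fell, the matrix metalloproteinase gene Mmp3 (1.35 ± 0.18 to 0.0619 ± 0.0043 CPM, adjusted p = 0.0375), where each K74R library held 1 count. Mmp3 passed the count filter through its WT libraries alone, so a fall was the only call open to it. Of 22 lysosomal genes 1 fell, Galc, galactosylceramidase, from 157 ± 7.56 to 66.5 ± 2.43 CPM (log2 -1.25, adjusted p = 0.0319), and 21 of 22 had a negative value (median log2 -0.62). Glb1 had a log2 value of -0.06. Of 18 integrated stress response genes, 1 rose, the serine synthesis gene Psat1, from 56.9 ± 7.04 to 149 ± 35.1 CPM (log2 1.39, adjusted p = 0.0441). Besides the loss without K74R MSC replicate 1, the calls of Galc and Mmp3 were lost without any other MSC library (adjusted p of 0.0595 to 0.0681 and of 0.0913 to 0.0953). Bmf was lost without WT MSC replicate 2 (0.061), and Psat1 with library size alone (0.0505) and without WT MSC replicate 1 (0.101) or 2 (0.0903). DESeq2 called 1 BCL2 gene higher and 2 lower, 5 secreted factors higher and 8 lower, 9 lysosomal genes lower, and 1 stress response gene in each direction. Over all genes in MSC it called 1909 of 14475. With limma-voom 1 gene was called in each of the 4 lists.

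**Figure D4:**
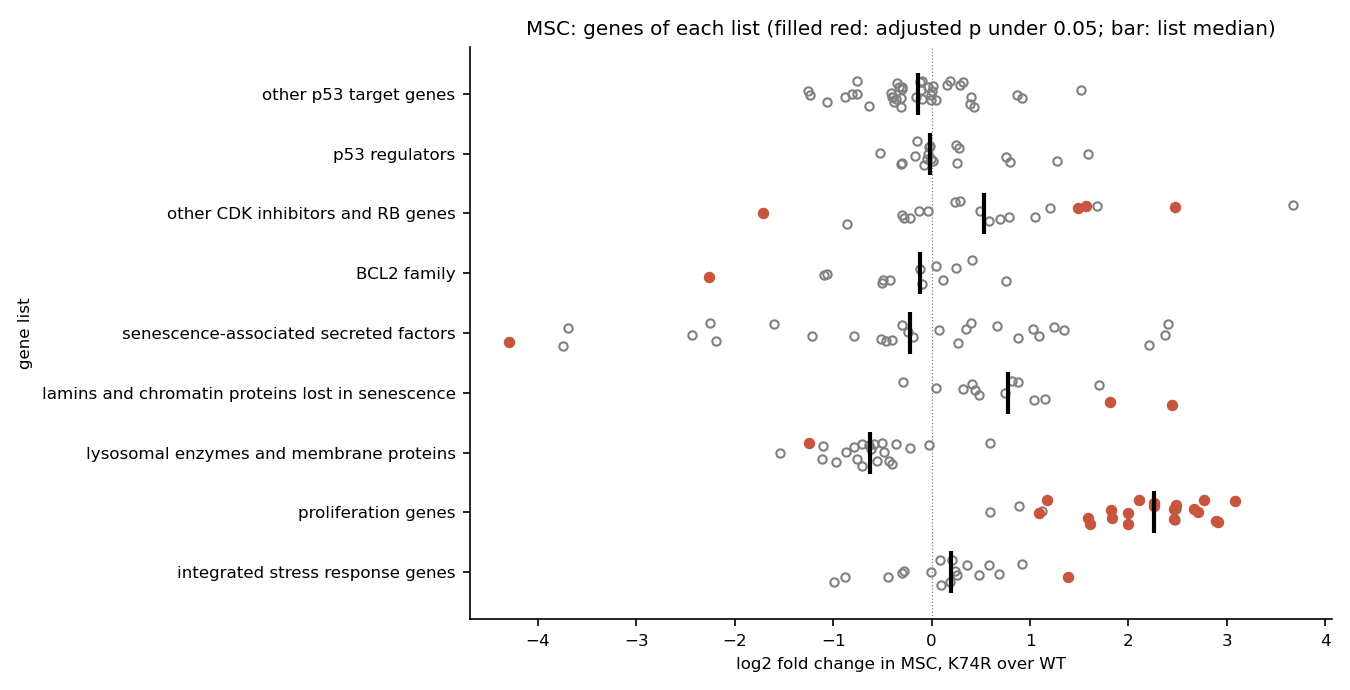
Log2 fold change of K74R over WT in MSC for each tested gene of 9 lists, with filled red points for an adjusted p under 0.05, open points for the rest and a bar for the list median. The proliferation genes all lie above 0 (median 2.26), 21 of 22 lysosomal genes lie below 0 (median -0.62), and the other p53 targets lie on both sides (median -0.14).

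Markers of other cell types moved with genotype in MSC, where 3.34% of all genes were called. The 5 macrophage markers summed to 5350 to 6892 CPM in WT and 1753 to 3482 in K74R, none was at 0, and C1qa was called lower. The 4 endothelial markers summed to 279 to 1507 CPM in WT and 14.8 to 23.7 in K74R, none was at 0, and 3 of 4 were called lower. The 3 pan-leukocyte markers summed to 1062 to 1375 CPM in WT and 369 to 738 in K74R. The 3 adipocyte markers summed to 50.7 to 65.2 CPM in WT and 250 to 304 in K74R, with Plin1 called higher. The 4 osteoblast markers summed to 181 to 190 CPM in WT and 294 to 305 in K74R, with none called. The sums of the 8 stromal markers overlapped (11245 to 12831 and 11602 to 15557), and none of the 8 was called. Single stromal markers went both ways. Cxcl12 was at 5091 to 8906 CPM in WT and 1556 to 3081 in K74R, and Col1a1 at 1056 to 2126 and 3346 to 5230. The part of these shifts in the values of Lmnb1, of the proliferation genes and of the lysosomal genes was not tested.

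In bone marrow no gene of the 10 passed the genotype test. Of the 7 with enough counts to test, 0 passed with edgeR, and none had an unadjusted p under 0.05, where 0.773% of 14872 genes passed and 17.8% had such a p. DESeq2 and limma-voom also called 0. Lmnb1 was at 407, 313 and 353 CPM in WT and 380, 381 and 368 in K74R (log2 0.09, 95% interval -0.12 to 0.30, adjusted p = 0.66). Cdkn1a was at 8.20, 7.58 and 6.43 CPM in WT and 8.75, 8.08 and 7.24 in K74R (log2 0.13, 95% interval -0.25 to 0.51). Bax had the largest difference, from 14.9 to 16.3 CPM in WT and from 10.9 to 15.1 in K74R, with overlap (log2 -0.26, SE 0.14, adjusted p = 0.37). Gdf15, below the count filter, had 0, 4 and 4 counts in WT marrow, against 6, 17 and 12 with K74R, so that all K74R libraries were above all WT libraries. The same held for Cdkn2a and Cdkn2b, with 0 counts over the WT group and 3 and 6 over the K74R group. Among the genes tested, which these were not, it held for 11.1%. At such counts it is not read as a difference.

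Of the marrow lists, only the BCL2 family held a called gene. Bmf was at 22.5 ± 3.69 CPM in WT and 45.1 ± 10.4 in K74R (SD, n = 3) (log2 1.02, SE 0.18, adjusted p = 0.0472), the opposite sign to its fall in MSC. This call was lost with limma-voom (adjusted p = 0.0726), with library size alone (0.0689), with a filter at 1 CPM (0.0506), in the model of all 16 libraries (0.224) and without WT replicate 1 (0.12) or 3 (0.212) or K74R replicate 2 (0.212) or 3 (0.212). Of 38 other p53 targets 0 passed with edgeR and 7 had an unadjusted p under 0.05, against 17.8% of all genes (median log2 -0.02). DESeq2 called 3 of the 38, where it called 533 of all 14872 genes in marrow, and limma-voom called 0. Rps27l, a ribosomal protein gene with a close paralog and so uncertain, had the smallest p (54.2 ± 7.54 to 39.8 ± 3.61 CPM, adjusted p = 0.12).

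The other marrow lists each had 0 called genes with edgeR and are given by the gene with the smallest p. These were the acetyltransferase gene Crebbp (log2 0.26, adjusted p = 0.16), Cbx7 (0.61, 0.083), the activin gene Inhba (-0.34, 0.13), the histone gene H2afz (-0.22, 0.36), the alpha-galactosidase gene Gla (-0.55, 0.0951), Mcm7 (-0.19, 0.28) and the mitochondrial serine hydroxymethyltransferase gene Shmt2 (-0.57, 0.13). In marrow 17.8% of all genes tested had an unadjusted p under 0.05. In these lists the counts were 4 of 18 p53 regulators, 3 of 20 CDK and RB genes, 5 of 23 secreted factors and 0 of 14 chromatin genes. They were 5 of 22 lysosomal genes, 0 of 25 proliferation genes and 7 of 18 stress response genes in the rest. DESeq2 called 0, 2, 1, 0, 1, 0 and 1 genes of these lists, against 533 of all 14872 genes, and limma-voom 0 in each. The proliferation genes had a median log2 value of -0.09, with 23 of 25 negative, and the stress response genes one of -0.30, with 16 of 18 negative. Neutrophil markers summed to 28047 to 30603 CPM in WT and 22763.5 to 24746 in K74R marrow, and B cell markers to 216 to 405 and 418 to 556, with no marker called. Their part in these list values was not tested.

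In tumors no gene of the 10 passed the test for the genotype of the host. All 10 were tested, 0 passed with edgeR, and 0 had an unadjusted p under 0.05, where 0.0406% of 14779 genes passed and 11.2% had such a p. DESeq2 and limma-voom also called 0, and 1 had an unadjusted p under 0.05 with DESeq2. Gdf15 had the largest difference, at 1.92, 0.838 and 1.00 CPM in WT and 1.39, 2.35 and 3.57 in K74R, with overlap (log2 0.96, SE 0.44, 95% interval -0.04 to 1.96, adjusted p = 0.46). Lmnb1 was at 181, 170 and 195 CPM in WT and 188, 174 and 160 in K74R (log2 -0.06, 95% interval -0.25 to 0.14). Cdkn1a was at 50.9, 47.2 and 48.0 CPM in WT and 46.4, 50.8 and 61.4 in K74R (log2 0.13, 95% interval -0.12 to 0.38). The 2 Cdkn2 genes also overlapped between the genotypes, with log2 values of 0.13 and 0.14.

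No listed gene passed in tumors with edgeR. The smallest adjusted p was that of Chac1, a glutathione-degrading enzyme induced through ATF4, at 4.88 ± 0.68 CPM in WT and 11.5 ± 1.33 in K74R (log2 1.24, adjusted p = 0.0867). All 18 stress response genes had a positive value in tumors (median log2 0.25, against 0.00 over all genes). Of them 5 had an unadjusted p under 0.05, against 11.2% of all genes. DESeq2 called 4 of the 18 higher, where it called 202 of all 14779 genes in tumors, and limma-voom called 0. Gdf15, a p53 target that is also induced by ATF4, had a positive value too, which was not called. Whether it is linked to these genes was not tested. Sesn2, which stands in both the p53 and the stress response list, was at 35.5 ± 2.1 and 51.4 ± 5.1 CPM (log2 0.54, adjusted p = 0.2). The other p53 targets had a median of -0.04, with 15 of 38 positive. An unadjusted p under 0.05 was found for 3 of the 38, near the 11.2% of all genes, and DESeq2 called 1 and limma-voom 0.

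The other tumor lists are given by the gene with the smallest p. These were the p53 relative Trp63 (log2 -0.86, adjusted p = 0.22), Ccne2 (0.29, 0.33), the proapoptotic gene Bcl2l11 (-0.41, 0.45), Inhba (-0.56, 0.19), Hells (0.28, 0.39), the beta-glucuronidase gene Gusb (-0.23, 0.37) and Pcna (0.25, 0.34). In tumors 11.2% of all genes tested had an unadjusted p under 0.05. In these lists the counts were 5 of 19 p53 regulators, 2 of 19 CDK and RB genes, 0 of 13 BCL2 genes and 6 of 32 secreted factors. They were 1 of 14 chromatin genes, 2 of 22 lysosomal genes and 1 of 25 proliferation genes in the rest. DESeq2 called 1, 0, 0, 2, 0, 0 and 0 genes of these lists, against 202 of all 14779 genes, and limma-voom 0 in each. Trp63 was the regulator called lower by DESeq2 (adjusted p = 0.0035), and it was also called with no filter on low counts (1.1e-04) and without K74R tumor replicate 1 (0.039). The secreted factors had the widest range of these lists, from -0.70 to 1.67 on the log2 scale. Macrophage markers summed to 469 to 516 CPM in WT and 279 to 405 in K74R tumors, with none called, and their part in these values was not tested.

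The genotype effect on Lmnb1 differed between tissues by the test of the difference itself. It was lower in marrow than in MSC by 2.23 on the log2 scale (value -2.23, SE 0.17, adjusted p = 1.0e-06) and higher in MSC than in tumor (2.36, SE 0.17, adjusted p = 9.0e-07), and these 2 tests share the MSC libraries. No difference was called between marrow and tumor (0.14, 95% interval -0.17 to 0.45, adjusted p = 0.75). Of the 7 genes with enough counts to test in marrow, Lmnb1 alone differed between marrow and MSC by edgeR, against 18.8% of all genes, and 0 of the 7 between marrow and tumor, against 0.0385% (11.5% with an unadjusted p under 0.05), where DESeq2 and limma-voom also called 0. Between MSC and tumor 1 of the 10 differed, Lmnb1, against 10.6%. The fitted marrow differences of the Cdkn2 genes and Gdf15 are not read as results, since these genes were too low to test in marrow and the Cdkn2 genes had 0 counts in WT marrow. Ccng1 missed the threshold between marrow and MSC (log2 -0.58, SE 0.20, adjusted p = 0.0538). It was called with DESeq2 (0.0358), with no filter on low counts (0.0476) and without K74R MSC replicate 2 (0.00546) or K74R tumor replicate 3 (0.0466). All 25 proliferation genes showed the difference that Lmnb1 did, lower in marrow than in MSC (median -2.34) and higher in MSC than in tumor (median 2.21).

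The genes whose levels followed Lmnb1 most closely over the 16 libraries, after the mean of each tissue was taken out, were cell cycle genes. Among 12098 genes with an average log2 CPM of at least 1, these were Cdca2 (Pearson r = 0.996), which targets protein phosphatase 1 to chromosomes, Ncapd2 (0.994), a condensin subunit, and Ccnf (0.993), cyclin F. These values rest on the MSC libraries, since over the 12 marrow and tumor libraries they were 0.848, 0.809 and 0.730. They share library depth and scaling and are given as a description. Cdca2 stood at 5.42 ± 0.77 CPM in WT MSC and 26.3 ± 1.52 in K74R MSC (SD, n = 2), against 86.6 ± 6.69 and 89.7 ± 5.48 in WT and K74R marrow (SD, n = 3).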

How the data were processed

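TRIzol was used for RNA extraction and the KAPA mRNA HyperPrep kit for library preparation, per the labels' protocols. The values deposited are raw gene counts for 16 libraries. The authors used Trimmomatic 0.38, HISAT2 2.1.0 and featureCounts 1.6.0 with GRCm38, per the submitters' processing notes. Strand setting, annotation release and treatment of multiply mapped reads: not given in the sources used here. Column names of WT tumors carry an R, and those of WT MSC read KCF where K74R has KLF, with no meaning given.

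IDs were matched to GENCODE M21, and groups follow the labels for genotype and tissue. The 10 genes and the gene lists were chosen with earlier results of these data known. The tests used edgeR 4.0.16 in R 4.3.3: filterByExpr, trimmed mean of M-values (TMM) scaling, then glmQLFit and glmQLFTest, with Benjamini-Hochberg adjustment over all genes tested and a threshold of 0.05. Genotypes were compared in each tissue alone, and tissues and interactions in a model of 16 libraries in 6 groups. CPM uses TMM factors over all 16 libraries. An SE is the log2 fold change divided by the square root of F, and fold changes carry a prior count of 0.125. Per list and comparison, the named genes are the 2 with the smallest p in each direction among those past the threshold, otherwise the single gene with the smallest p. For a gene called by genotype, the 3 genes with the highest correlation were added. Ccne1, C1qa and Plin1 were named after their values were seen. Floors of 3 counts cover counting error only. No libraries of a group were alike within sampling noise.

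Alternatives were other scalings, filters and tools (DESeq2 1.42.0, limma-voom from limma 3.58.1), a single model, a replicate block and each library left out. The scripts were tested on simulated data. Ddit3, whose symbol has 2 identifiers, was not analysed here.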

Additional observations from a re-analysis of the deposited data

Results flagged for a closer look

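Groups of 2 or 3 libraries are too small for a test of single outlying samples. The genotype effect differed between tissues, by the interaction test in edgeR's model of all 16 libraries, for Lmnb1. It was lower in marrow than in MSC (log2 -2.23, adjusted p = 1.0e-06) and higher in MSC than in tumor (log2 2.36, adjusted p = 9.0e-07). Both share the MSC libraries. Lmnb1 was at 13.2 CPM in WT and 64.8 in K74R MSC, at 358 and 376 in marrow and at 182 and 174 in tumor. The same model gave Cdkn2b a fitted value of 4.41 (adjusted p = 0.0257) for marrow minus MSC, which is not read as a difference. The gene was too low to test in marrow, with 0 counts in WT and 1, 3 and 2 in the K74R libraries, and it entered the model through its MSC and tumor counts, so that the value depends on the prior count. Its adjusted p was above 0.05 when any of the 3 WT marrow libraries, K74R marrow library 2 or 3, or K74R MSC library 1 was left out, with fitted values from 4.04 to 4.43.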

How the results depend on the processing

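Lmnb1 in MSC stayed between 2.18 and 2.41 on the log2 scale with each library left out, and its call was lost without K74R MSC replicate 1. The number of the 10 genes called in MSC, 1, became 2 with no filter on low counts, 2 with DESeq2, 2 with the replicate block and 3 in a single model, and was 0 to 2 with a library left out. Where this left 1 library in an MSC group, that library was assumed to vary like the other group. Over all genes, 115 calls in marrow became 875 with no filter, 533 with DESeq2 and 60 in a single model (11 to 684 with a library left out). In MSC 484 calls became 3063, 1909 and 4431 (0 to 581), and in tumor 6 became 810, 202 and 0 (0 to 124). For differences of the genotype effect, 7 calls for marrow minus tumor became 11 with relative log expression factors, 603 with no filter and 181 with DESeq2 (4 to 54). With a library left out, marrow minus MSC gave 1 to 5 of the 10 genes and 1938 to 4416 of all genes, and MSC minus tumor 1 to 2 and 1110 to 3030, with 2 of the 10 by DESeq2. The cause of these changes was not tested.

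Values near 0 changed sign. Trp53 for marrow over tumor was -0.14 with library size alone, -0.0183 with no filter and -0.0749 between the K74R groups. Between the K74R groups it was -0.17 for marrow over MSC and 0.0991 for MSC over tumor. Glb1 for MSC over tumor was -0.16 with library size alone. With a library left out the ranges were -0.00578 to 0.19 for Lmnb1 in marrow, and in tumor -0.11 to 0.00223 for Lmnb1 and -0.0278 to 0.25 for Cdkn2b. In MSC they were -0.0881 to 0.47 for Trp53, -0.17 to 0.00663 for Cdkn1a, -0.0444 to 0.40 for Mdm2 and -0.12 to 0.0177 for Glb1. Between WT groups they were -0.078 to 0.25 (marrow over MSC), -0.0303 to 0.0572 (marrow over tumor) and -0.24 to 0.0901 (MSC over tumor) for Trp53, and -0.00517 to 0.0686 for Glb1 (MSC over tumor). No called value of the 10 genes changed sign under the alternatives run.

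Same-numbered libraries did not deviate together (r of 0.18, 0.07 and -0.04 in marrow, 0.01, -0.05 and 0.04 in tumor and -0.13 in MSC), so replicates were not paired. With the replicate number as a block 1135 genes were called in MSC and 13 in tumor, and with the crossed pairing in MSC, added after seeing the data, 1943.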
